A study of Mus musculus with 66 samples.

Results

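RNA-seq was compared between C2C12 cells depleted of Cdc73 (siCdc73) and cells given a control siRNA (siCtrl), batch against batch. C2C12 is an established line of mouse myoblasts, the proliferating precursors of skeletal muscle, which fuse into myotubes when serum is withdrawn. The labels give no other treatment or genotype for either group, and both received 50 nM siRNA for 48 h. The comparison used 4 of the 66 samples of the series, 1 siCtrl and 1 siCdc73 library in batch 1 and the same in batch 2. The labels do not say whether the batches were separate cultures, so the p-values measure the spread between these libraries. The 2 siPaf1 libraries entered the same fit to help estimate that spread. The single siSki8 library was in the fit as well but, having no replicate, added no information on the spread between replicates. All 9999 genes of the count table were taken, 1 transcript each, of which 6521 had enough reads to be tested and 3478 did not. Gene counts summed to 6390217 (siCtrl, batch 1), 5834181 (siCtrl, batch 2), 6319417 (siCdc73, batch 1) and 3572156 (siCdc73, batch 2), so the siCdc73 library of batch 2 was the least deep of the 4.

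Cdc73 is a subunit of the PAF complex (Paf1C), which travels with RNA polymerase II and also holds Paf1, Ctr9, Leo1, Rtf1 and, in mammals, Ski8 (listed by its gene symbol, Wdr61). Paf1C helps the polymerase through chromatin and recruits the enzymes that attach ubiquitin to histone H2B (H2Bub), a mark of transcribed gene bodies. In humans CDC73 encodes parafibromin, a tumor suppressor of the parathyroid.

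Expression of the targeted gene was low in both siCdc73 libraries. Cdc73 (mm9 chr1:145445927-145550023, minus strand) stood at 109 and 98.4 CPM (read count normalized to the TMM-scaled library total) in siCtrl batches 1 and 2 and at 14.2 and 22.0 CPM in siCdc73. The siCdc73 libraries were thus both under the siCtrl ones, and 17.0% of the control level was left in the fit over both batches (13.1% in batch 1 and 22.5% in batch 2). The log2 fold change was -2.56 ± 0.27 (SE, adjusted p = 1.99e-08, edgeR quasi-likelihood test with batch as a block, used for every RNA-seq fold change given here). Ratios of reads summed over the batches are the exception and carry no batch term. After siPaf1, Cdc73 had a log2 fold change of 0.00.

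The other subunits in the table were not lower after siCdc73. Paf1, the scaffold subunit, was at 107 and 160 CPM in siCtrl and at 264 and 418 CPM in siCdc73, and rose by 1.35 ± 0.23 on the log2 scale (adjusted p = 2.88e-05). Ctr9, a large scaffold subunit, was at 172 and 211 CPM in siCtrl and rose to 438 and 445 CPM (log2 fold change 1.21 ± 0.22, adjusted p = 8.52e-05). For both genes, the siCdc73 libraries lay above the siCtrl ones. Wdr61 was at 49.8 and 129 CPM in siCtrl and at 98.9 and 152 CPM in siCdc73, groups that overlapped, and did not pass the test (log2 fold change 0.58 ± 0.26, adjusted p = 0.07). Leo1 and Rtf1 were not analysed here.

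**Figure D1:**
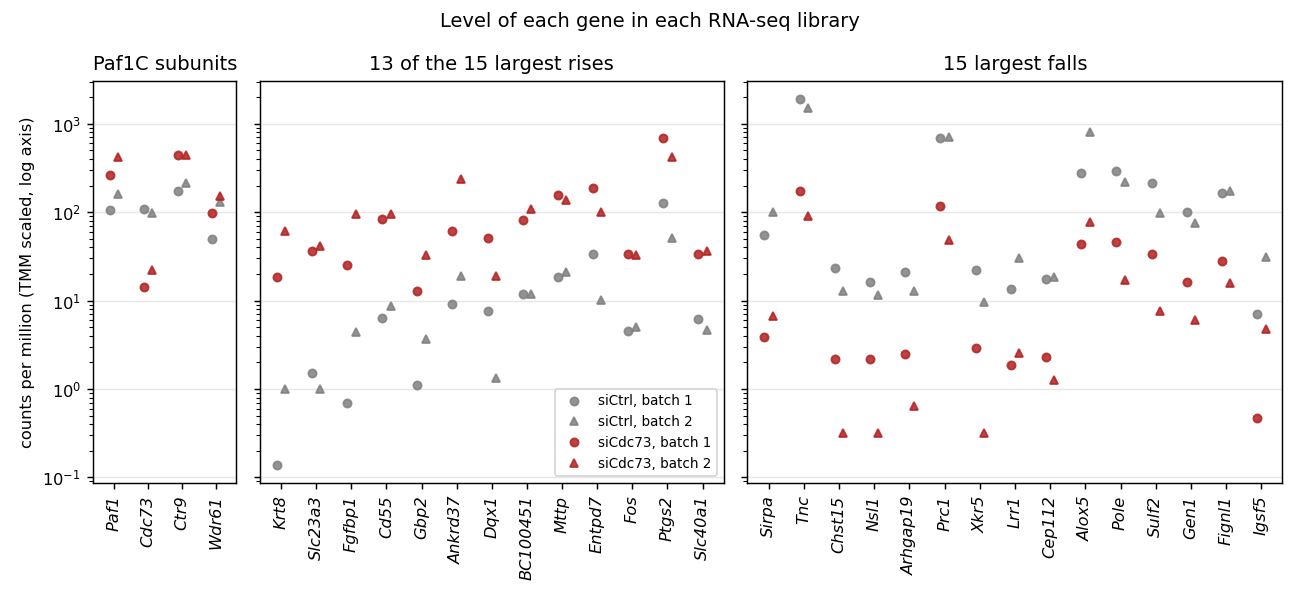
Level of the 4 measured Paf1C subunits and of 13 of the 15 genes with the largest rise and the 15 with the largest fall, in CPM (TMM scaled) on a log axis. Each point is 1 library, circles for batch 1 and triangles for batch 2, grey for siCtrl and red for siCdc73. Cdc73 is lower in both siCdc73 libraries, at 14.2 and 22.0 against 109 and 98.4.

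Over all genes tested, 1264 rose (19.4%) and 1333 fell (20.4%), a call being an adjusted p under 0.05 with the same sign in both batches. The median log2 fold change of the called genes was 1.08 for those that rose and -1.21 for those that fell. Changes of at least 2-fold in both batches were measured for 558 of the genes that rose (44.1%) and 681 of those that fell (51.1%). All siCdc73 values lay above all siCtrl values for 1040 of the 1264 (82.3%), and below for 1116 of the 1333 (83.7%), whereas 24.9% and 26.3% of all genes tested separated in these ways. Across the 6521 genes the log2 fold changes of batch 1 and batch 2 had a Pearson r of 0.784, and 5432 (83.3%) had the same sign. These values are a description, since genes are not independent replicates.

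The size of these counts depended on the batch term and on each library. Without the term edgeR called 0 genes (1377 at an unadjusted p under 0.05), and its biological coefficient of variation was 0.397 in place of 0.179. Leaving out siCtrl batch 1 left 795 that rose and 837 that fell, leaving out siCtrl batch 2 left 674 and 761, leaving out siCdc73 batch 1 left 779 and 760, and leaving out siCdc73 batch 2 left 542 and 661. Scaling by library size alone, in place of TMM, gave 965 and 1760, so that genes that rose were 35.4% of the calls instead of 48.7%. It moved the median log2 fold change of all genes from -0.02 to -0.19, and directions of near-zero medians are therefore given with this scaling beside them.

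**Figure D2:**
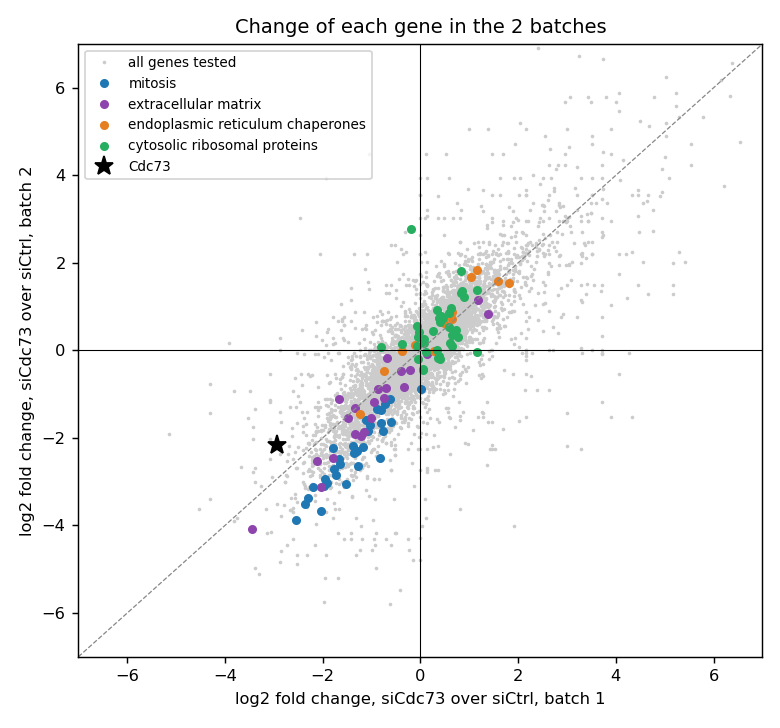
Log2 fold change (siCdc73 over siCtrl) of each gene tested in batch 1 (x axis) against batch 2 (y axis), with 2 genes outside the axes, the members of 4 function lists coloured and Cdc73 starred. The dashed line marks equal change. Mitosis genes lie in the lower left, the endoplasmic reticulum chaperones that rose in the upper right.

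Genes of cell division fell almost without exception. Of 31 mitosis genes tested, 30 fell (96.8%, against 20.4% of all genes) and 0 rose, with a median log2 fold change of -1.87 (-1.37 in batch 1 and -2.34 in batch 2). Of 24 DNA replication genes, 23 fell and 0 rose (median -1.77), and of 10 genes of recombination repair and the damage checkpoint all 10 fell (median -2.13). With any 1 library left out, at least 24, 18 and 9 of the members still fell. The study had itself singled out mitotic cell cycle genes from these libraries, so the mitosis list is no independent evidence of its direction.

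Among the mitosis genes, the regulators of spindle, kinetochore and cytokinesis were all represented. Prc1, which bundles the microtubules of the central spindle, stood at 694 and 711 CPM in siCtrl batches 1 and 2 and at 119 and 48.5 CPM in siCdc73 (log2 fold change -3.26 ± 0.30, adjusted p = 1.6e-09). Ndc80, the kinetochore subunit that grips microtubules, went from 117 and 159 to 23.7 and 15.3 CPM (-2.83 ± 0.29, adjusted p = 9.59e-09). Ccnb2, a cyclin of the mitotic kinase, went from 447 and 514 to 115 and 67.0 CPM (-2.43 ± 0.25, adjusted p = 1.47e-08). In all of these, both siCdc73 libraries lay well below both siCtrl libraries. The kinase Melk fell by 2.94 on the log2 scale, Ect2, which activates RhoA for cytokinesis, fell by 2.59, and Tpx2, a spindle assembly factor, fell by 2.53. Kif11, the motor that separates spindle poles, was at 253 and 210 CPM in siCtrl and at 105 and 33.5 CPM in siCdc73 (-1.97 ± 0.29, adjusted p = 2.71e-06). Top2a, which untangles sister chromatids, was among the most abundant members, at 2450 and 2795 CPM in siCtrl and 768 and 502 CPM in siCdc73 (-2.09 ± 0.23, adjusted p = 4.58e-08). Pttg1, encoding securin, was the exception. Its values were 323 and 842 CPM in siCtrl and 327 and 458 CPM in siCdc73, with overlap between the groups and a log2 fold change of -0.43 ± 0.23 (adjusted p = 0.144).

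The replication and repair genes that fell covered initiation, polymerases and nucleotide supply. Pole, the catalytic subunit of the leading-strand polymerase, was at 290 and 217 CPM in siCtrl and at 45.8 and 17.2 CPM in siCdc73 (log2 fold change -3.07 ± 0.28, adjusted p = 1.45e-09). Mcm6, of the replicative helicase, was at 725 and 1021 CPM against 246 and 200 CPM (-1.96 ± 0.24, adjusted p = 1.66e-07). Rrm2, the regulated subunit of ribonucleotide reductase, fell by 2.01, the primase subunit Prim1 fell by 2.19, the clamp loader subunit Rfc5 fell by 2.37 and Uhrf1, which carries DNA methylation through replication, fell by 2.22 on the log2 scale. Orc6, of the origin recognition complex, did not pass the test (778 and 1155 CPM in siCtrl, 590 and 1022 CPM in siCdc73, adjusted p = 0.286), and its groups overlapped. Of the repair genes, the checkpoint kinase Atr was at 133 and 148 CPM in siCtrl and at 34.8 and 24.9 CPM in siCdc73 (-2.22 ± 0.26, adjusted p = 9.12e-08). Rad50, which tethers broken DNA ends, fell by 2.27, Brip1, a helicase partner of Brca1, fell by 2.21, Rad18, an E3 ligase acting at stalled forks, fell by 2.71 and Rad51ap1 fell by 2.28.

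Promoters of 4 mitotic genes are shown to illustrate a pair of short motifs, and were picked because they hold both. CCAAT is the box bound by NF-Y, and TTTGAA is a form of the cell cycle homology region (CHR), which is bound by the DREAM and MuvB complexes. RefSeq windows of 250 bases upstream of the start (GRCm38.p6, given on the gene's own strand) were matched for 5232 of the 6521 genes tested, the first listed window being used for the 1272 genes with more than 1. Both motifs were searched on both strands. CCAAT was present in 17 of 26 mitosis promoters (65.4%) and in 36.8% of all 5232, and TTTGAA in 8 of 26 (30.8%) and in 10.4% of all. Both were present in 7 of 26 (26.9%) and in 4.19% of all, so most mitosis promoters lacked the pair. The pair was also frequent in a list with few calls. Replication-dependent histone promoters held CCAAT in 20 of 22 (90.9%) and the pair in 10 (45.5%). The medians of that list had opposite signs in the 2 batches, with a fitted median of -1.03. Genes that fell held CCAAT in 36.3% of their promoters and genes that rose in 35.2%. In the windows of Ccnb2 (chr9:70421555-70421804), Ect2 (chr3:27153879-27154128), Kif11 (chr19:37376132-37376381) and Top2a (chr11:99024190-99024439), capitals mark CCAAT and TTTGAA or their complements ATTGG and TTCAAA. They are descriptions of letters and were not tested as binding sites.
Ccnb2: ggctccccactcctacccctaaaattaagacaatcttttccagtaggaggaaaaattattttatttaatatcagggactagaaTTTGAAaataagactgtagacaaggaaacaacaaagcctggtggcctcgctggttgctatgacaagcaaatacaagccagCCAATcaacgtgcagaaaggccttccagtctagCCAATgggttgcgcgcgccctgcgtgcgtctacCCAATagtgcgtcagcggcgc
Ect2: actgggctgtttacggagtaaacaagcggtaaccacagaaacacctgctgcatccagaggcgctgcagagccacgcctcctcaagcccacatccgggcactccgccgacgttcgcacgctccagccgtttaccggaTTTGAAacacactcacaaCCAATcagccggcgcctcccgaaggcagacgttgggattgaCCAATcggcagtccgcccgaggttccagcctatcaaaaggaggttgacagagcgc
Kif11: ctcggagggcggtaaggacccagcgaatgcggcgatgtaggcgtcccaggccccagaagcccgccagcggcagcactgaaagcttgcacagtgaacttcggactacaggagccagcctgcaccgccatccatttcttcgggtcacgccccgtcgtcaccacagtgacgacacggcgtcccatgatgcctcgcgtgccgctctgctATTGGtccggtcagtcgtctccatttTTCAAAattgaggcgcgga
Top2a: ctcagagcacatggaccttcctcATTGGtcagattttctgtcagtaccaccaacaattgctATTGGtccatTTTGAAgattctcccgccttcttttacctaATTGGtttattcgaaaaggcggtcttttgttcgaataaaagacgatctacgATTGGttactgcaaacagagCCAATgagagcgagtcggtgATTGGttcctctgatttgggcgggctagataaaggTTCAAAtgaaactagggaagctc

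Replication-dependent histone genes did not move together. Of 24 tested, 2 rose, 4 fell and 18 were not called. The median was 0.80 in batch 1 and -1.63 in batch 2, so no single direction describes the list. Histone mRNAs of this class end in a stem-loop in place of a poly(A) tail, and many copies are nearly identical, so their unique counts are low and uncertain. Hist3h2a was at 4.05 and 17.7 CPM in siCtrl and at 12.9 and 34.8 CPM in siCdc73 and rose (log2 fold change 1.26 ± 0.33, adjusted p = 0.00324), though its groups overlapped. Hist1h2bk fell, with 183 reads over the siCtrl libraries and 16 over the siCdc73 libraries. The control over knock-down ratio of these summed reads, without the batch term, was 8.38 (95% interval 5.02 to 14.96, counting error only). In blocked fits with 1 library left out its log2 fold change ran from -2.63 to -1.70, a smaller fall than the summed reads give. Without siCtrl batch 2 or without siCdc73 batch 2, 0 histone genes fell.

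The inhibitor of cyclin-dependent kinases Cdkn1a (p21) was at 380 and 280 CPM in siCtrl and at 951 and 860 CPM in siCdc73, a clear separation (log2 fold change 1.49 ± 0.26, adjusted p = 3.95e-05). The other 12 genes in the list of p53 targets and inhibitors that were tested included 1 that rose and 2 that fell. Ei24 rose by 0.90 on the log2 scale, whereas Gdf15, a secreted stress factor, was at 236 and 250 CPM in siCtrl and at 77.1 and 72.8 CPM in siCdc73 and fell (-1.70 ± 0.24, adjusted p = 2e-06). Zmat3, an RNA-binding p53 target, also fell (-1.11 ± 0.28, adjusted p = 0.00189). Shares of 15.4% in each direction were below those of all genes, and without siCdc73 batch 1, 1 rose and 1 fell.

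Genes of the extracellular matrix formed the next group that fell. The shares were 72.7% lower and 9.1% higher, against 20.4% and 19.4% of all genes. Of 22 tested, 16 fell and 2 rose, with a median log2 fold change of -1.16 (-0.99 in batch 1 and -1.16 in batch 2), and between 10 and 13 fell when 1 library was left out, the lowest count being without siCdc73 batch 2. Tenascin C (Tnc, chr4:63620819-63681760), a matrix protein of developing and injured tissue, was at 1891 and 1524 CPM in siCtrl and at 174 and 90.3 CPM in siCdc73 (-3.73 ± 0.26, adjusted p = 1.04e-11). Periostin (Postn) was at 54.9 and 186 CPM against 13.3 and 21.4 CPM (-2.57 ± 0.28, adjusted p = 3.74e-08). The siCdc73 libraries were below the siCtrl libraries for both. Fibulin genes Fbln5 and Fbln1, whose products organize elastic fibres and basement membrane, fell by 2.28 and 2.12, and the microfibril gene Fbn1 and the matricellular gene Thbs2 fell by 1.59 and 1.51 on the log2 scale.

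A pair of matrix genes went the other way. Thbs1, a matricellular protein that activates TGF-beta, was at 5578 and 2199 CPM in siCtrl and at 12570 and 4881 CPM in siCdc73 (log2 fold change 1.16 ± 0.20, adjusted p = 3.04e-05). Vcan, the proteoglycan versican, was at 435 and 208 CPM against 1139 and 373 CPM (1.14 ± 0.24, adjusted p = 0.00035). For both, siCdc73 was above siCtrl within each batch, while the groups overlapped across batches. Without siCdc73 batch 1, Vcan did not pass the test.

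Enzymes that modify the matrix were mixed, with 4 of 11 that fell and 2 that rose, and 2 and 1 without siCtrl batch 1. Loxl2, which cross-links collagen, was at 166 and 223 CPM in siCtrl and at 25.1 and 38.6 CPM in siCdc73 (log2 fold change -2.63 ± 0.29, adjusted p = 3.74e-08). Plau, the urokinase that starts plasmin proteolysis, was at 392 and 766 CPM in siCtrl and at 1022 and 1963 CPM in siCdc73 (1.37 ± 0.22, adjusted p = 8.61e-06). The 2 groups were fully separate for both genes. The protease Adamts1 fell by 1.14 and the metalloproteinase inhibitor Timp3 rose by 0.80. The shares of this list were 36.4% lower and 18.2% higher, against 20.4% and 19.4% of all genes.

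Adhesion receptors fell in 7 of 15 cases (46.7%, against 20.4% of all genes) and rose in 1 (6.7%, against 19.4%). Syndecan 1 (Sdc1) was at 331 and 217 CPM in siCtrl and at 68.1 and 33.2 CPM in siCdc73 (log2 fold change -2.47 ± 0.25, adjusted p = 9e-09). The integrin subunits Itgav and Itga6 fell by 1.53 and 1.55, and M-cadherin (Cdh15), the cadherin of myoblasts, went from 790 and 1015 CPM to 321 and 401 CPM (-1.32 ± 0.22, adjusted p = 2.59e-05). Vcam1, a partner of integrins, fell by 1.33 and Cd44, the hyaluronan receptor, fell by 0.68 on the log2 scale. The single rise was that of Sdc4, from 435 and 441 to 808 and 577 CPM (0.63 ± 0.23, adjusted p = 0.0286), which did not pass when siCtrl batch 1 or either siCdc73 library was left out, or with library size alone. Cd44 did not pass without any 1 of the 4 libraries.

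Of 24 genes for growth factors and their receptors, 11 fell and 3 rose (median -0.66). These were 45.8% and 12.5%, against 20.4% and 19.4% of all genes. The lowest counts were 5 that fell, without siCtrl batch 1 and also without siCdc73 batch 2, and 6 without siCdc73 batch 1. The receptor of PDGF-BB, Pdgfrb, was at 256 and 91.8 CPM in siCtrl and at 71.5 and 18.5 CPM in siCdc73 (log2 fold change -2.02 ± 0.26, adjusted p = 3.7e-07). Ptn (pleiotrophin), Vegfb and Fgf7 fell by 2.25, 2.01 and 2.08 on the log2 scale. The 3 that rose included 2 ligands of the EGF receptor. Hbegf was at 16.5 and 18.2 CPM in siCtrl and at 54.0 and 46.3 CPM in siCdc73 (1.52 ± 0.28, adjusted p = 8.09e-05), and Areg at 53.1 and 74.7 CPM against 121 and 179 CPM (1.22 ± 0.23, adjusted p = 0.000126). Both were separate between groups. The third was Igfbp3 (0.72 ± 0.29, adjusted p = 0.0495).

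TGF-beta and BMP signalling genes fell in 4 of 15 cases and rose in 0, and 2 fell without siCtrl batch 1 and also without siCdc73 batch 1. Follistatin (Fst), a secreted trap of activin and myostatin, had 237 reads over both siCtrl libraries and 45 over both siCdc73 libraries, a ratio of 3.86 (95% interval 2.79 to 5.43, counting error only). The log2 fold change of Fst in the fit was -2.25, a larger fall than the summed reads give. The BMP antagonist Grem1 was at 339 and 55.2 CPM in siCtrl and at 151 and 22.3 CPM in siCdc73 (log2 fold change -1.23 ± 0.24, adjusted p = 0.000196), lower within each batch. Tgfb1 and the co-receptor Tgfbr3 fell by 0.96 and 1.89. The share of this list that fell was 26.7%, against 20.4% of all genes. In the Wnt list, 5 of 22 rose and 3 fell, close to the shares of all genes, and between 1 (without siCtrl batch 2 or siCdc73 batch 2) and 3 rose with 1 library left out. The secreted modulator Dkk3 was at 7.55 and 5.55 CPM in siCtrl and at 0.619 and 1.60 CPM in siCdc73 (-2.65 ± 0.66, adjusted p = 0.00185). These are low values, and with 1 library left out the log2 fold change of Dkk3 ran from -3.52 to -1.64.

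Chaperones and folding enzymes of the endoplasmic reticulum (ER) rose in 6 of 12 cases (50.0%, against 19.4% of all genes) and fell in 1 (8.3%, against 20.4%). Their median log2 fold change was 0.62 (0.56 in batch 1 and 0.68 in batch 2). Between 4 and 5 rose with 1 library left out. Hspa5 (BiP, chr2:34627490-34632051), the main ER chaperone and sensor of unfolded protein, was at 10450 and 6671 CPM in siCtrl and at 23330 and 23980 CPM in siCdc73 (1.51 ± 0.21, adjusted p = 1.31e-06). Dnajb9, its co-chaperone, was at 27.4 and 27.9 CPM against 96.1 and 80.7 CPM (1.67 ± 0.26, adjusted p = 9.16e-06). Ero1l, the oxidase that drives disulphide formation, was at 87.6 and 67.3 CPM against 264 and 201 CPM (1.58 ± 0.23, adjusted p = 3.73e-06). The siCdc73 libraries were above the siCtrl ones for all of these. Creld2 rose by 1.38, the secreted ER stress factor Manf by 0.77 and the disulphide isomerase Pdia4 by 0.69, the last not with library size alone. Canx, the lectin chaperone calnexin, fell, from 3659 and 2169 to 1564 and 793 CPM (-1.34 ± 0.21, adjusted p = 8.61e-06).

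The promoter of Hspa5 (GRCm38.p6 chr2:34771840-34772089, RefSeq, 250 bases upstream) is shown because CCAAT, part of the ER stress element, was present in 9 of the 11 matched promoters of ER chaperones (81.8%) and in 36.8% of all promoters. Shares as high were found in other lists, such as replication-dependent histones (20 of 22, 90.9%). Capitals mark CCAAT and its complement ATTGG, of which the Hspa5 window has 4.
Hspa5: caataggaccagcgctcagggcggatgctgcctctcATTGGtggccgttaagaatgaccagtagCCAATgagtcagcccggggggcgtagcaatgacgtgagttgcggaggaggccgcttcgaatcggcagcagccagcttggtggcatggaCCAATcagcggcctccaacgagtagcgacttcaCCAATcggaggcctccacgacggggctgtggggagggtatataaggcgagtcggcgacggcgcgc

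Of 13 genes of the integrated stress response, the translation-linked arm that raises amino acid genes, 5 fell and 1 rose. These were 38.5% and 7.7%, against 20.4% and 19.4% of all genes. Without siCtrl batch 2, and without siCdc73 batch 2, 2 fell. Mthfd2, of mitochondrial folate metabolism, was at 404 and 744 CPM in siCtrl and at 236 and 289 CPM in siCdc73 (log2 fold change -1.07 ± 0.23, adjusted p = 0.000404), and Aldh1l2 fell by 1.71. The transcription factor Cebpb was the 1 that rose, from 135 and 66.3 to 260 and 221 CPM (1.34 ± 0.25, adjusted p = 6.52e-05).

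Genes of the oxidative stress response rose in 10 of 19 cases and fell in 1 (median 0.61, with 0.42 in batch 1 and 0.75 in batch 2). These were 52.6% and 5.3%, against 19.4% and 20.4% of all genes. Without siCdc73 batch 2, 5 rose, and without siCtrl batch 1, 6 did. Taldo1, of the pentose phosphate pathway, was at 66.4 and 103 CPM in siCtrl and at 344 and 545 CPM in siCdc73 (log2 fold change 2.39 ± 0.23, adjusted p = 5.96e-09). Gsta4, which conjugates glutathione to lipid aldehydes, was at 146 and 270 CPM against 475 and 746 CPM (1.56 ± 0.26, adjusted p = 2.32e-05). The peroxidases Gpx1 and Prdx6 rose by 1.33 and 1.38, Gstm1 by 1.14 and G6pdx, the entry enzyme of the pentose phosphate pathway, by 0.98. Every siCdc73 value of Taldo1 and Gsta4 was above every siCtrl value. Keap1, the repressor of Nrf2, fell from 160 and 120 to 83.9 and 64.5 CPM (-0.91 ± 0.24, adjusted p = 0.00271), a call lost without siCtrl batch 1 or either siCdc73 library.

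Proteasome subunits rose in 5 of 18 cases and fell in 1 (median 0.50), although 1 rose when siCdc73 batch 2 was left out. Psmd13, of the regulatory particle, was at 271 and 321 CPM in siCtrl and at 574 and 779 CPM in siCdc73 (log2 fold change 1.19 ± 0.23, adjusted p = 0.000109). Psmd2 and Psmd7 rose by 1.01 each. The share of proteasome subunits that rose was 27.8%, against 19.4% of all genes. For cytosolic and mitochondrial chaperones it was 35.7%. Cytosolic and mitochondrial chaperones rose in 5 of 14 cases and fell in 0 (median 0.45), and 2 rose without siCdc73 batch 2 and 3 without siCtrl batch 1. Dnajb4 was at 185 and 233 CPM against 429 and 532 CPM (1.20 ± 0.22, adjusted p = 7.92e-05), Hsp90ab1 rose by 0.74 and Cryab, a small heat shock protein abundant in muscle, by 0.85. Hspa1b rose by 1.45, but its sequence is nearly that of Hspa1a, so the reads could belong to either. Lysosomal genes rose in 5 of 17 cases and fell in 2, led by the cathepsin Ctsl at 888 and 2197 CPM in siCtrl and 3315 and 7384 CPM in siCdc73 (1.82 ± 0.22, adjusted p = 1.89e-07). Without siCtrl batch 1, and without siCdc73 batch 2, 2 of the lysosomal genes rose, and without siCdc73 batch 1, 3 did. The median of the lysosomal list was 0.08, and -0.10 with library size alone. Its members rose in 29.4% of cases and fell in 11.8%, against 19.4% and 20.4% of all genes.

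Of 37 cytosolic ribosomal proteins, 9 rose (24.3%, against 19.4% of all genes) and 0 fell. The median log2 fold change was 0.43, and 32 of the 37 were above 0. Rplp0, of the ribosomal stalk, was at 1041 and 2104 CPM in siCtrl and at 2312 and 5465 CPM in siCdc73 (1.27 ± 0.21, adjusted p = 2.14e-05). Rplp1 and Rps20 rose by 1.31 and 1.07. These genes have many processed pseudogenes, which makes unique counts uncertain, and 2 of the list rose without siCdc73 batch 2 and 3 without siCtrl batch 2.

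Mitochondrial ribosomal proteins rose in 9 of 28 cases (32.1%, against 19.4% of all genes) and fell in 1 (3.6%, against 20.4%), with a median of 0.39. Mrpl44 was at 52.7 and 75.7 CPM in siCtrl and 160 and 203 CPM in siCdc73 (log2 fold change 1.51 ± 0.24, adjusted p = 8.61e-06), and Mrpl32 and Mrpl39 rose by 1.33 and 1.29. Oxidative phosphorylation genes were called 14 times higher (36.8%) and 4 times lower (10.5%) among 38. Without siCdc73 batch 2 these lists had 3 and 4 that rose, and without siCtrl batch 1 they had 4 and 8. Cox8a, of complex IV, rose by 1.41. Ndufa10, a subunit of complex I, fell from 546 and 711 to 191 and 190 CPM (-1.70 ± 0.23, adjusted p = 8.56e-07), with separate siCtrl and siCdc73 values. Sdha, of complex II, fell by 1.00.

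Ribosome biogenesis factors rose in 8 of 22 cases (36.4%, against 19.4% of all genes) and fell in 1 (4.5%, against 20.4%), with a median of 0.35. The smallest adjusted p was that of Bysl, from 72.8 and 56.2 to 130 and 129 CPM (log2 fold change 1.01 ± 0.24, adjusted p = 0.00115). Without siCtrl batch 2, and without siCdc73 batch 2, 0 members rose, and without siCdc73 batch 1, 4 did. Splicing factors rose in 14 of 51 cases (27.5%) and fell in 3, with 4 that rose without siCdc73 batch 2, 7 without siCtrl batch 2 and 8 without siCdc73 batch 1. Snrpb2, of the U2 snRNP, was at 42.4 and 92.0 CPM in siCtrl and at 122 and 309 CPM in siCdc73 (1.64 ± 0.24, adjusted p = 2.71e-06), Plrg1 rose by 1.23 and Sf3b2 by 1.06. Mbnl2, a splicing regulator of muscle, the Sm protein gene Snrpg and the U5 GTPase gene Eftud2 fell by 1.22, 1.15 and 0.91. The study had singled out RNA processing genes from these libraries, so that list is no independent evidence of its direction.

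Of 12 genes for cleavage and polyadenylation, 2 rose (16.7%) and 3 fell (25.0%), near the shares of all genes. Clp1 was at 33.1 and 56.2 CPM in siCtrl and at 65.6 and 128 CPM in siCdc73 (log2 fold change 1.09 ± 0.24, adjusted p = 0.000764), and Cstf2t, a copy of the GU-rich binding factor, rose by 1.06. Cpsf3, the endonuclease that makes the cut, was at 137 and 215 CPM against 59.1 and 93.5 CPM (-1.21 ± 0.23, adjusted p = 0.000142), lower in both siCdc73 libraries than in either siCtrl library. The poly(A) polymerase gene Papola fell by 0.94 and Pcf11, which links cleavage to the polymerase, by 0.79, and both calls were lost without siCtrl batch 2 and without siCdc73 batch 2.

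Enzymes that write or erase H2B ubiquitin and H3 methylation rose in 6 of 15 cases and fell in 1 (median 0.47). These were 40.0% and 6.7%, against 19.4% and 20.4% of all genes. Kdm5b, an H3K4 demethylase, had the lowest adjusted p, at 50.5 and 47.4 CPM in siCtrl and 265 and 212 CPM in siCdc73 (log2 fold change 2.28 ± 0.24, adjusted p = 1.99e-08). The E2 enzymes for H2Bub, Ube2a and Ube2b, rose by 1.63 and 1.03, and Rnf40, a subunit of the E3 ligase, was at 92.0 and 49.5 CPM against 176 and 123 CPM (1.11 ± 0.24, adjusted p = 0.000458). Kdm5a rose by 0.98 and the H3K27 demethylase gene Kdm6a by 0.65. Ezh2, the H3K27 methyltransferase, was at 556 and 885 CPM in siCtrl and at 207 and 351 CPM in siCdc73 (-1.38 ± 0.22, adjusted p = 1.19e-05), with no overlap. Without siCdc73 batch 1, 3 of the 6 rises passed.

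Other elongation factors included 5 of 14 that rose (35.7%) and 3 that fell (21.4%), against 19.4% and 20.4% of all genes. Ccnt1, the cyclin of P-TEFb, was at 61.5 and 29.1 CPM in siCtrl and at 178 and 59.0 CPM in siCdc73 (log2 fold change 1.31 ± 0.26, adjusted p = 0.000179), higher within each batch. The DSIF subunit genes Supt4a and Supt5 rose by 1.30 and 0.78 and the histone chaperone gene Supt6 by 0.87. Nelfe, of the pausing factor NELF, and Larp7, which stabilizes 7SK RNA, fell by 0.61 and 0.61. Without siCdc73 batch 1, 1 of these genes rose and 0 fell, without siCdc73 batch 2, 2 and 0, and without siCtrl batch 1, 3 and 0.

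Muscle genes did not share a direction. Of 11 myogenic regulators, 5 rose and 1 fell (median 0.58, with 0.27 in batch 1 and 0.78 in batch 2). These were 45.5% and 9.1%, against 19.4% and 20.4% of all genes. The number that rose was 2 without siCtrl batch 2, 2 without siCdc73 batch 1 and 3 without siCdc73 batch 2. Myf6 (MRF4), the myogenic factor of late differentiation, was at 0.978 and 0.841 CPM in siCtrl and at 9.44 and 12.1 CPM in siCdc73 (log2 fold change 3.42 ± 0.58, adjusted p = 2.35e-05), low values that did not overlap. Tcf3, encoding the E2A partners of the myogenic factors, rose by 1.16, and Myf5 by 0.66. Pax7, the factor of satellite cells, was at 47.5 and 5.89 CPM against 18.1 and 2.87 CPM (-1.22 ± 0.36, adjusted p = 0.00801). For Pax7 and Myf5 the call was lost without siCtrl batch 1 or either siCdc73 library.

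Contractile and other differentiation genes rose in 6 of 29 cases and fell in 5, close to the shares of all genes. Without siCtrl batch 2, and without siCdc73 batch 2, 2 rose and 3 fell. Myl1, a myosin light chain gene, was at 4.47 and 14.6 CPM in siCtrl and at 11.6 and 102 CPM in siCdc73 (log2 fold change 2.19 ± 0.34, adjusted p = 6.29e-06), and Tnni2, the sarcomere gene Myom1 and Myh1 rose by 1.98, 1.85 and 1.63, the last from few reads and with close relatives in its gene cluster. The embryonic sarcomere gene Actc1 was at 5.73 and 21.9 CPM in siCtrl and at 0.619 and 2.87 CPM in siCdc73, fully separate (-2.95 ± 0.42, adjusted p = 2.18e-06). Its reads were few, 41 and 130 in siCtrl and 4 and 9 in siCdc73. The sarcoglycans Sgca and Sgcb, which anchor the muscle membrane, fell by 1.67 and by 1.65. Over the 6 measured myoblast markers the summed level was 2770 and 3321 CPM on unscaled library totals in siCtrl and 2109 and 2023 in siCdc73. Over the 5 myotube markers it was 28.5 and 143 in siCtrl and 21.7 and 167 in siCdc73, so only the sums can be ranked. Des (780 and 1455) and Cdh15 (885 and 1035) carried much of the siCtrl myoblast sum. Single genes crossed over. The myotube marker Mylpf was above the myoblast marker Myf5 in batch 2, at 97.7 against 64.6 in siCtrl and 136 against 95.5 in siCdc73. In batch 1 it was below, at 14.4 against 60.3 and 13.3 against 80.1. Such sums do not measure cell identity. In bulk RNA, fewer cells of a type and less RNA per cell cannot be told apart.

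Cytoskeletal genes rose in 5 of 20 cases and fell in 1, with 0 calls in either direction without siCdc73 batch 2 and 3 that rose without siCtrl batch 1. The tropomyosin gene Tpm1 was at 491 and 963 CPM in siCtrl and at 977 and 2147 CPM in siCdc73 (log2 fold change 1.08 ± 0.22, adjusted p = 0.000197), higher within each batch. Cfl1 (cofilin) rose by 0.80, the LIM proteins Pdlim7 and Pdlim5 by 0.96 and 0.95 and the non-muscle myosin gene Myh10 fell by 1.14. The median of this list was 0.12, and -0.06 with library size alone. Its share that rose was 25.0%, against 19.4% of all genes.

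Among targets of YAP and TEAD 3 of 17 rose (17.6%) and 4 fell (23.5%), near the shares of all genes, and 2 fell without siCdc73 batch 2. Amotl2, an inhibitor of YAP, was at 313 and 159 CPM in siCtrl and at 779 and 532 CPM in siCdc73 (log2 fold change 1.53 ± 0.23, adjusted p = 4.07e-06), and Ajuba, a scaffold that inhibits Hippo kinases, went from 237 and 86.8 to 518 and 279 CPM. Ctgf was at 234 and 754 CPM against 124 and 225 CPM (-1.33 ± 0.24, adjusted p = 4.62e-05), and F3, encoding tissue factor, fell by 1.99. Amotl2 was separate between groups, and Ctgf was separate as well, by a narrow margin.

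Immediate early and AP-1 genes rose in 6 of 16 cases (37.5%, against 19.4% of all genes) and fell in 2 (12.5%, against 20.4%). Fos was at 4.47 and 5.05 CPM in siCtrl and at 34.1 and 32.6 CPM in siCdc73 (log2 fold change 2.79 ± 0.34, adjusted p = 1.54e-07), with the replicates close to each other. Jund and Fosl2, its partner and its relative, rose by 1.19 and 1.22, and Zfp36, which destabilizes inflammatory mRNAs, by 1.35. Klf4 and the phosphatase gene Dusp1 fell by 1.06 and 0.65. Without siCtrl batch 2, 3 of the list rose and 0 fell, and without siCdc73 batch 2, 4 and 0.

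Among interferon response and antigen presentation genes 6 of 21 rose (28.6%, against 19.4% of all genes) and 1 fell (median 0.42). Gbp2, an interferon-induced GTPase, was at 1.12 and 3.70 CPM in siCtrl and at 12.7 and 32.6 CPM in siCdc73 (log2 fold change 3.25 ± 0.41, adjusted p = 3.48e-07). Ifitm2, H2-K1 and H2-D1 rose by 1.39, 1.24 and 1.26. These 4 genes belong to families of similar sequence, so single members are uncertain. Inflammatory and complement genes included 5 of 16 that rose and 4 that fell, and 3 and 1 without siCtrl batch 2 and also without siCdc73 batch 2, and 3 and 3 without siCtrl batch 1. Ptgs2 (cyclooxygenase 2, chr1:151947254-151955140) was at 127 and 51.6 CPM in siCtrl and at 692 and 423 CPM in siCdc73 (2.71 ± 0.25, adjusted p = 2.39e-09). The cell surface inhibitors of complement Cd55 and Cd59a rose by 3.58 and 1.31, while the chemokine gene Ccl2 fell by 1.55. The shares of the inflammatory list were 31.2% higher and 25.0% lower, against 19.4% and 20.4% of all genes.

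Genes of glycolysis and the hypoxia response rose in 9 of 22 cases and fell in 3 (median 0.32), with 3 that rose without siCtrl batch 1, 3 without siCdc73 batch 2 and 5 without siCdc73 batch 1. Aldoa was at 809 and 2079 CPM in siCtrl and at 2197 and 5069 CPM in siCdc73 (log2 fold change 1.36 ± 0.22, adjusted p = 1.48e-05). Vegfa and Pfkl rose by 0.93 and 0.83, and Pdk1, which restrains pyruvate entry to mitochondria, fell by 1.59. Lipid genes rose in 4 of 17 cases and fell in 6, or 3 without siCtrl batch 2. Plin2, which coats lipid droplets, was at 619 and 1197 CPM against 2375 and 4525 CPM (1.93 ± 0.22, adjusted p = 6.42e-08), and Acadvl and Acly rose by 1.37 and 1.13. Acsl1, which activates fatty acids, was at 102 and 49.1 CPM in siCtrl and at 19.4 and 7.02 CPM in siCdc73 (-2.55 ± 0.29, adjusted p = 7.2e-08), with Fads2, Elovl6 and their regulator Srebf1 also lower by log2 fold changes of -1.43, -1.81 and -1.24. The lipid list had a median of 0.04, and -0.14 with library size alone. Its members rose in 23.5% of cases and fell in 35.3%, against 19.4% and 20.4% of all genes. For glycolysis and the hypoxia response these shares were 40.9% and 13.6%.

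Zinc finger genes, the largest list at 145 tested, had 16 that rose and 26 that fell (17.9%), both below the shares of all genes. With 1 library left out, between 5 (without siCdc73 batch 1) and 9 rose, and between 9 (without siCdc73 batch 2) and 14 fell. Their median was -0.21 (-0.14 in batch 1 and -0.36 in batch 2). Of 6 circadian clock genes edgeR called 0.

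**Figure D3:**
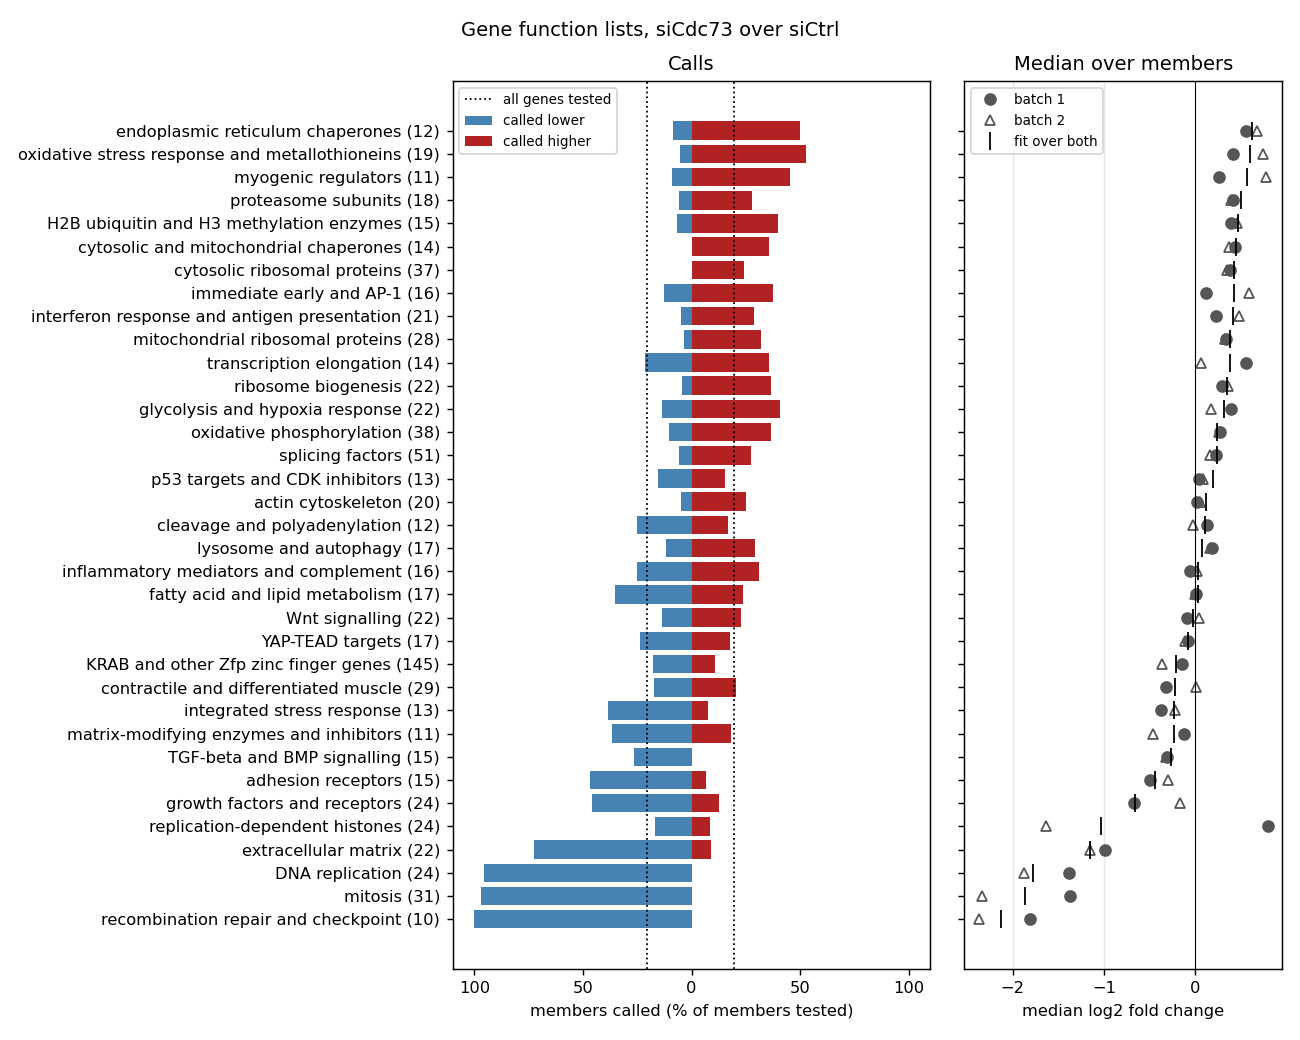
Function lists ordered by median, with the number of genes tested in brackets. The left panel gives the percent of members called higher (red) and lower (blue), with dotted lines at the 19.4% and 20.4% of all genes tested, and the right panel gives the median log2 fold change in batch 1, in batch 2 and in the fit over both. The 3 lists of cell division stand at the bottom, with 95.8% to 100.0% of their members lower.

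The 15 largest rises and 15 largest falls, among called genes with at least 1 log2 unit in both batches and a mean of 50 reads, were mostly outside the lists (6 and 3 were in one). Krt8 (chr15:101827142-101834773), a keratin of simple epithelia, led the rises. It had 1 and 6 reads in siCtrl and 119 and 193 in siCdc73, a ratio of 60.9 for the summed reads after scaling for depth (95% interval 29.2 to 153, counting error only). It therefore met the mean of 50 reads only through the siCdc73 libraries, where it was high. It was 1 of the 7 measured markers of unrelated cell types and the only one with enough reads to be tested. The other 6 summed to 1.41 and 1.03 CPM on unscaled totals in siCtrl and 1.90 and 1.68 in siCdc73, with Alb at 0 in all libraries, and Epcam had 0 reads in both siCtrl libraries and 6 and 1 in siCdc73. The part of other cell types in the Krt8 value was not tested.

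Several of the other rises encoded membrane and secreted proteins. Slc23a3, of the ascorbate transporter family, was at 1.54 and 1.01 CPM in siCtrl and at 36.4 and 41.2 CPM in siCdc73 (log2 fold change 4.81 ± 0.41, adjusted p = 6.34e-10). Fgfbp1, a secreted carrier of fibroblast growth factors, was at 0.699 and 4.37 CPM against 25.2 and 95.7 CPM (4.59 ± 0.37, adjusted p = 3.58e-10). For these genes, both siCdc73 values were well above both siCtrl values. Both met the limit on mean reads only through siCdc73, with 11 and 6 reads (Slc23a3) and 5 and 26 reads (Fgfbp1) in siCtrl. Mttp, which loads lipid onto lipoproteins, rose by 2.90, Entpd7, a nucleotidase, by 2.81 and Slc40a1 (ferroportin, the iron exporter) by 2.68. Ankrd37, a hypoxia-responsive gene, was at 9.09 and 18.8 CPM in siCtrl and at 61.3 and 236 CPM in siCdc73 (3.21 ± 0.29, adjusted p = 1.45e-09). Dqx1, a predicted helicase, and BC100451 rose by 2.99 and 2.97. Other named rises met the limit on mean reads only through siCdc73 too. Their siCtrl reads were 8 and 22 (Gbp2), 32 and 30 (Fos), 54 and 8 (Dqx1), 44 and 28 (Slc40a1) and 45 and 52 (Cd55).

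Sirpa (chr2:129418571-129457964), the receptor of CD47, had the largest fall. It was at 55.5 and 101 CPM in siCtrl and at 3.87 and 6.70 CPM in siCdc73 (log2 fold change -3.86 ± 0.32, adjusted p = 3.58e-10). Sulf2, an extracellular sulfatase of heparan sulfate, was at 216 and 96.9 CPM against 33.8 and 7.66 CPM (-3.04 ± 0.28, adjusted p = 1.92e-09), and Alox5, which starts leukotriene synthesis, at 274 and 803 CPM against 43.7 and 77.2 CPM (-3.08 ± 0.31, adjusted p = 9.17e-09). In each, the groups did not overlap. Chst15, which sulfates chondroitin, had 243 reads over both siCtrl libraries and 15 over both siCdc73 libraries, a control over knock-down ratio of 11.9 (95% interval 7.05 to 21.5). The fit gave Chst15 a fold of 13.2.

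Genes of division stood among these 15 too, beside Prc1 and Pole. The kinetochore gene Nsl1 had 186 reads in siCtrl and 15 in siCdc73, a ratio of 9.08 (95% interval 5.37 to 16.6), and the RhoGAP gene Arhgap19 had 228 and 18 (9.28, interval 5.74 to 15.9). Their folds in the fit were 10.7 and 10.5. Gen1, which cuts Holliday junctions, was at 100 and 74.7 CPM in siCtrl and at 16.4 and 6.06 CPM in siCdc73 (log2 fold change -3.03 ± 0.31, adjusted p = 9e-09). Fignl1, an ATPase of recombination, fell by 2.96. Cep112, of the centrosome, fell by 3.13, a call lost when the first listed transcript was taken. Lrr1, which unloads the replicative helicase, fell by 3.22. The other 2 were Xkr5, with 215 and 20 reads (7.87, interval 4.97 to 13.2), and Igsf5, with 234 and 18 reads (9.52, interval 5.89 to 16.3). In the fit their folds were 9.44 and 7.77. Sirpa, Chst15, Nsl1, Arhgap19, Xkr5, Lrr1, Cep112 and Igsf5 had under 50 reads in each siCdc73 library. They met the limit on mean reads only through siCtrl, where they were high.

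Calls also differed with the length of the gene, measured as the annotated span from first to last base. Among the fifth of genes with the shortest span (median 4483 bases), 27.3% rose and 14.4% fell, and the median log2 fold change was 0.27 (0.20 in batch 1 and 0.31 in batch 2). Among the fifth with the longest span (median 120800 bases), 12.7% rose and 22.3% fell, with a median of -0.18 (-0.12 and -0.25). The share that rose declined through all 5 classes, whereas the share that fell was 22.8%, 23.1% and 22.3% in the 3 longest. Genes that rose had a median span of 16834 bases and genes that fell 28746, against 24471 for all 6153 genes with a span. By the number of introns, the shares that rose went from 20.0% in the lowest class to 18.2% in the highest, and those that fell from 15.6% to 24.0%. After siPaf1 the medians of the shortest and longest spans were 0.11 and -0.06.

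**Figure D4:**
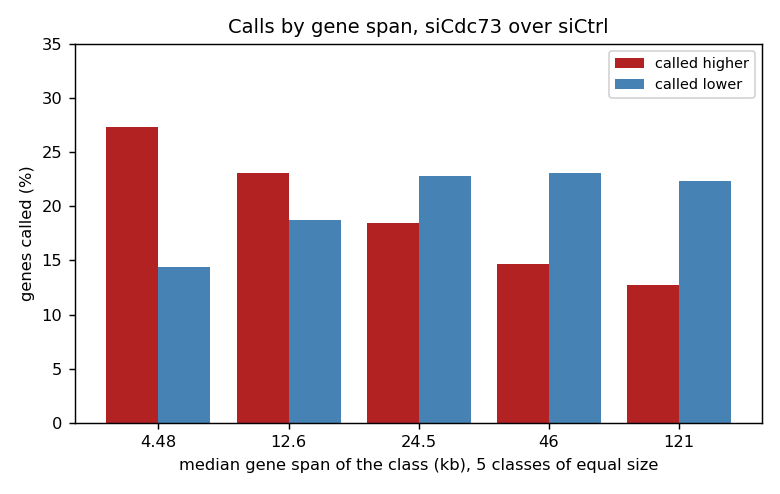
Percent of genes called higher (red) and lower (blue) after siCdc73 in 5 classes of equal size by annotated gene span, labelled by the median span of the class in kilobases. The share called higher declines from 27.3% to 12.7% and the share called lower goes from 14.4% to 22.3%.

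The same knock-down was profiled by 3'READS, which counts the 3' ends of polyadenylated transcripts. In these libraries 1349 of 12579 genes rose (10.7%) and 1478 fell (11.7%) by the same test, and without the batch term edgeR called 0 in each direction. Of the genes that rose in RNA-seq, 1095 were tested in 3'READS, where 1060 (96.8%) had the same direction, 505 (46.1%) rose and 1 fell. Of those that fell, 1185 were tested, 1121 (94.6%) had the same direction, 576 (48.6%) fell and 4 rose. In the mitosis list 26 of 31 fell and 0 rose, and in the ER chaperone list 5 of 12 rose and 1 fell. Krt8 had 0 and 1 reads in siCtrl and 35 and 208 in siCdc73 by 3'READS, and Sirpa 220 and 400 against 11 and 30. Myf6 and Dqx1 differed between the assays, with 3'READS log2 fold changes of 0.21 and -0.32 that did not pass the test. Of the 15 largest rises in RNA-seq, 14 were tested in 3'READS and 12 rose. Of the 15 largest falls, 14 were tested and 11 fell. Ankrd37, Arhgap19, Igsf5 and Xkr5 kept their direction in 3'READS but did not pass.

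Which of these changes differed from those after Paf1 depletion was tested as the direct contrast of siCdc73 and siPaf1 in the same fit, since both are set against the same siCtrl libraries. Over all genes tested, 888 (13.6%) were higher and 951 (14.6%) lower after siCdc73 than after siPaf1, and 567 and 1408 with library size alone. Of the genes that rose after siCdc73, 458 (36.2%) were higher and 26 lower than after siPaf1, and 780 (61.7%) had no call in this contrast. Of those that fell, 499 (37.4%) were lower, 48 were higher and 786 (59.0%) had no call. These genes were chosen by their values in the same siCdc73 libraries, so an excess of calls in the chosen direction was built in. A missing call does not show that the values were alike.

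The cell division lists were low after both siRNAs. The mitosis list had a median log2 fold change of -1.87 after siCdc73 and -2.05 after siPaf1, and 8 of its 31 members were higher after siCdc73 than after siPaf1, with 0 lower. The DNA replication medians were -1.77 and -1.75, with 6 higher and 3 lower. Paf1 itself rose after siCdc73 (1.35) and fell after siPaf1 (-2.38).

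Medians of several other lists were close too, such as 0.38 and 0.39 for transcription elongation, with 0 members called in the contrast, and 0.32 and 0.31 for glycolysis and hypoxia. Lists whose medians or calls differed are given next, chosen after their values were seen. ER chaperones had a median of 0.62 after siCdc73 and -0.72 after siPaf1, and 9 of 12 were higher after siCdc73. Creld2, Manf and Pdia4 rose after siCdc73 and fell after siPaf1, by 1.38 and -0.84, 0.77 and -1.27, and 0.69 and -0.998. The oxidative stress list had medians of 0.61 and -0.19, with 10 of 19 higher and 1 lower, including G6pdx (0.98 and -0.63). Ribosome biogenesis factors had medians of 0.35 and -0.16, with 8 of 22 higher. Lower after siCdc73 were 10 of 24 growth factor genes (medians -0.66 and 0.27), 9 of 22 matrix genes (-1.16 and -0.59), 12 of 29 contractile genes (-0.22 and 0.73) and 43 of 145 zinc finger genes (-0.21 and 0.36). Fbln5 and Fst fell after siCdc73 and rose after siPaf1, by -2.28 and 0.74 and by -2.25 and 1.06 on the log2 scale. Sulf2, one of the genes chosen for a large change after siCdc73, had a log2 fold change of -3.04 after siCdc73 and 0.07 after siPaf1, and Fgfbp1 of 4.59 and 0.91.

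**Figure D5:**
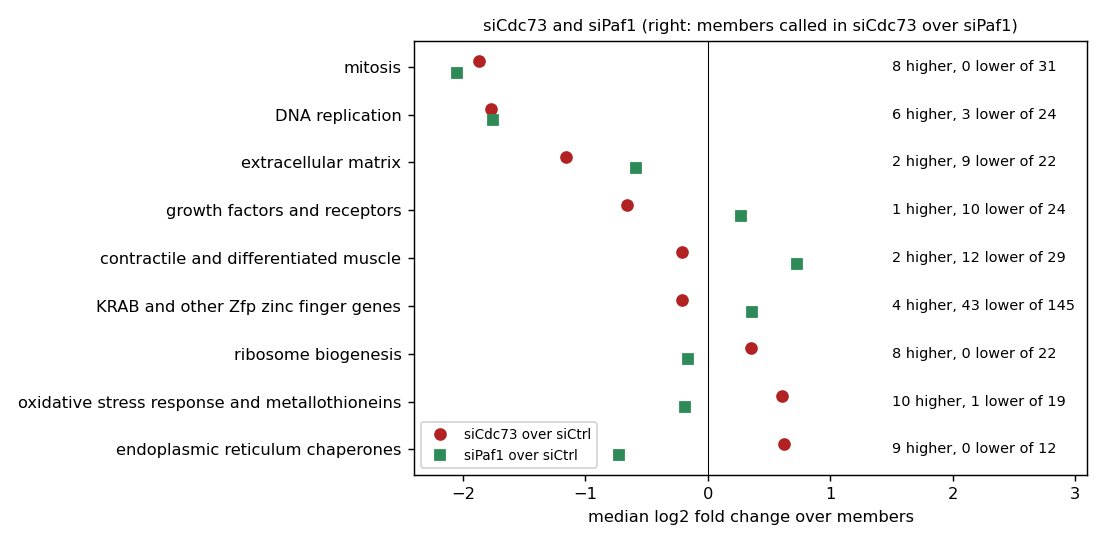
Median log2 fold change over siCtrl of 9 function lists after siCdc73 (red circles) and after siPaf1 (green squares), chosen after their values were seen, with the members called higher or lower in siCdc73 over siPaf1 written at the right. Both medians of the mitosis list are low (-1.87 and -2.05), whereas those of the ER chaperones lie on opposite sides of 0 (0.62 and -0.72).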

How the data were processed

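RNA-seq was made from C2C12 cells 48 h after transfection. The libraries were depleted of rRNA and strand-specific. The authors aligned reads to mm9 by bowtie2 in local mode (version not given in the sources used here), filtered for unique mapping and mapping quality, and deposited raw counts for each RefSeq transcript, taken over coding regions where there was one, with RPKM values beside them. The deposited RPKM values served only to find the mapped reads each library implies. The 3'READS counts deposited by the authors are reads per polyadenylation site, summed here over the sense sites of a gene.

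Of 15033 transcripts, the one with the most reads on average stood for each of the 9999 genes. Groups and batches came from the labels, and 0 per-sample columns were left unmatched. Counts were tested with edgeR 4.0.16 in R 4.3.3 (TMM, its filter on low counts, quasi-likelihood test, prior count 0.5) over all 7 libraries, with batch as a block, which leaves 2 residual degrees of freedom, and Benjamini-Hochberg adjustment over all genes tested. The calls need an adjusted p under 0.05 and the same sign in both batches. CPM values use TMM-scaled totals. DESeq2 1.42.0 was an alternative. Tables and figures used Python 3.11.15 with pandas 2.3.3, numpy 2.4.6, scipy 1.17.1 and matplotlib 3.10.9. Ratios from few reads were taken on reads summed over both batches, without the batch term, and can differ from the fit. They have exact intervals at 95%, which cover counting error only, since reads carry no molecular identifiers here. Positions are from an mm9 annotation, which matched 9368 genes.

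The labels call the replicate number a batch, and the differences between batches correlated across genes, with r of 0.75 between siCdc73 and siCtrl, 0.636 between siCdc73 and siPaf1, and 0.623 between siPaf1 and siCtrl. In data simulated for siCdc73 against siCtrl (6521 genes, 200 changed by 2-fold, with the batch difference), 85 changed genes were recovered with the block and 0 without. Of 4-fold changes, 189 of 200 were recovered with the block and 0 without. With the block, 5 unchanged genes were called at 2-fold and 6 at 4-fold. The simulation gave every group the same batch difference and took its spread from the fit with the block, which favours the block. It also changed far fewer genes than were called in the data, so it cannot show that the block is right for them.

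Genes named are Paf1C subunits, the 15 with the largest change each way (at least 1 log2 unit in both batches, a mean of 50 reads), and, in each function list described, up to 6 called members each way with the smallest adjusted p, plus members of a defining role that were not called. Some of the genes so chosen are not reported here. The 45 lists were compared by counts and medians with all genes, with no set test. The members and lists were chosen with earlier results of these data known. Promoter sequences are RefSeq's, matched by gene ID. ChIP-seq libraries of the series were not used here.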

Additional observations from a re-analysis of the deposited data

Results flagged for a closer look

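For 12 genes, siCdc73 and siPaf1 moved the level in opposite directions, each past the threshold, and the difference between the 2 siRNAs passed as well (edgeR, contrast within the same fit); both are set against the same siCtrl libraries. They were looked for among the genes chosen to be named in the text, so the count says nothing of all genes. Higher after siCdc73 than after siPaf1, by the log2 difference, were Paf1 (3.722 ± 0.26), Hist1h4i (3.557 ± 0.673), Creld2 (2.219 ± 0.243), Manf (2.04 ± 0.247), Pdia4 (1.687 ± 0.22) and G6pdx (1.604 ± 0.227). Paf1 is the target of the other siRNA, and Hist1h4i rests on few reads, with 1.54 and 5.55 CPM in siCtrl. Lower after siCdc73 were Axin2 (-5.636 ± 0.417), Actc1 (-4.96 ± 0.4), Il33 (-3.773 ± 0.395), Fst (-3.309 ± 0.382), Fbln5 (-3.013 ± 0.279) and Tead3 (-1.87 ± 0.264). Actc1 had only 4 and 9 reads in the siCdc73 libraries. Axin2, a negative regulator of Wnt signalling, stood at 2.80 and 3.36 CPM in siCtrl and at 0.929 and 1.60 CPM in siCdc73, where its fall was near the threshold (adjusted p = 0.0444), and had a log2 fold change of 4.37 after siPaf1. Il33, an alarmin, had log2 fold changes of -1.34 after siCdc73 and 2.43 after siPaf1.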

How the results depend on the processing

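Without the replicate block, the counts of genes that rose and fell were 0 and 0 in RNA-seq, 0 and 0 in 3'READS and 0 and 0 between siCdc73 and siPaf1, and Cdc73 kept its size (-2.522) with an adjusted p of 0.0705. The rule of over 1.4-fold with Fisher's exact p under 0.01 on pooled reads gave 2148 genes that fell. With library size alone, 567 genes were higher and 1408 lower after siCdc73 than after siPaf1, in place of 888 and 951, and the medians of the actin cytoskeleton (-0.055), lipid (-0.137) and lysosome (-0.097) lists changed sign. With 1 library left out, 542 to 795 genes rose and 661 to 837 fell, the lone library of a group being assumed to vary like the others, and between 42.3% and 60.8% of the calls made with all libraries were kept. Medians then ran from -0.009 to 0.103 (actin cytoskeleton), -0.232 to 0.081 (YAP-TEAD targets) and -0.059 to 0.114 (lipid metabolism), and replication-dependent histones from -1.54 to 0.66. Of 201 named genes' fold changes, 198 no longer passed without the replicate block, 55 without siCdc73 batch 2, the largest loss with 1 library left out, and 9 with DESeq2. Pttg1 had a log2 fold change of 0.017 in batch 1 alone. Other scalings, filters, transcripts and DESeq2 kept both RNA-seq counts within 1.5 times, from 965 to 1651 genes that rose and 1058 to 1760 that fell. Counts of calls could not be made within 1 batch, which has no replicate. The siCdc73 library of batch 2 had the fewest reads, and the part of depth in lost calls was not tested.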
